A study of Mus musculus with 4 samples.

Results

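The genes described here are those of the nuclear receptor family, 46 genes in all, taken by name from the array annotation. They were chosen with earlier results of these data known. Of the 46, 44 had a row of their own and were tested, among 21789 rows for 19938 genes in the whole table. Nr1h2 and Nr2e3 were not analysed here. ICR mice, aged 1 month at the start, received daily intraperitoneal ketamine at 30 mg/kg or normal saline for 3 months, and RNA labelled as prefrontal cortex was hybridized to 4 arrays, 2 in each of 2 groups. By the methods, mice were tested in a water maze and then killed. The methods give neither the time of day of killing nor its interval from the last test. Ketamine blocks the NMDA type of glutamate receptor. The sample titles and the source field name opposite treatments for the same arrays, so the groups are named here by their titles, and every difference is that of the arrays titled ketamine minus those titled saline. By the source field each direction would be the reverse. The labels give the sex as female and the methods give male mice. No label says how many mice stand behind an array, so p-values here reflect only how far these arrays varied, which may be technical.

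Nuclear receptors are transcription factors that bind short DNA elements through a zinc finger domain, and many of them are switched by a small lipophilic ligand such as a steroid, thyroid hormone or retinoic acid. Some act as homodimers, some as monomers, and many as heterodimers with a retinoid X receptor (RXR). In the brain they set neuronal identity during development and later couple hormones, the daily clock and neuronal activity to transcription. RORα, for example, is needed for the Purkinje cells of the cerebellum, and RORβ marks layer IV of the sensory cortex.

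The labelled tissue was checked against lists of marker genes, chosen with earlier results of these data known, and the groups differed in them. Counts are of genes called by limma as set out below, where 23.4% of all rows were called higher and 9.71% lower. Of 16 forebrain neuron markers measured, 14 were lower and none higher on the arrays titled ketamine. The summed linear signals of the 16 ran from 8133 to 8206 on the arrays titled saline and from 1193 to 1251 on those titled ketamine. On the latter arrays Tbr1, Emx2 and Neurod6 read at the level of olfactory receptor genes. Of the 16 markers, however, 12 lay above the 95th percentile of the olfactory receptor rows on all arrays. All 18 markers of cerebellar granule and Purkinje cells were higher (summed signal 1734 to 2282 against 20253 to 21969). Microglial markers were lower in 9 of 10 (1476 to 1482 against 802 to 917) and markers of hypothalamus and midbrain in 8 of 13 (970 to 1038 against 538 to 545). Choroid plexus markers were higher in 7 of 9 (3375 to 3450 against 4587 to 6004), and 5 of 10 astrocyte markers were higher and 1 lower (10333 to 10739 against 14582 to 14678). Near the shares of all rows were 1 lower of 10 oligodendrocyte markers (4955 to 5110 against 4692 to 5957) and 2 higher of 9 endothelial markers (1212 to 1343 against 1569 to 1645). Treatment and tissue therefore cannot be told apart for any gene below, and fewer cells of a type cannot be told apart from less RNA per cell.

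Values are log2 expression levels made by RMA, which corrects background, normalizes the arrays and gives 1 value per transcript. Group means differ on the log2 scale, where 1 is a doubling, and a gene was called when limma, adjusted by Benjamini-Hochberg over all tested rows, gave p under 0.05. The median difference of all rows was 0.13 and became -0.004 once the arrays were centred on their medians, so that 0.13 is to be taken from each difference to read it against the bulk of the genes. Levels of 1023 olfactory receptor rows, which serve here as a mark of very low signal, had 95th percentiles from 4.20 to 4.56 on the arrays. Of the 44 receptors, 33 lay above this mark on all arrays and 6 below it on all arrays.

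In the nuclear receptor family, 23 of 44 genes (52.3%) were called, against 33.2% of all rows. Of these, 10 were higher (22.7%, against 23.4% of all rows) and 13 lower (29.5%, against 9.71%). Past 1.3-fold, the fold threshold used here, there were 24 receptors, against 34.1% of all rows, with 10 higher and 14 lower. The groups did not overlap for 35 of 44 receptors, against 69.9% of all rows. All rows include more genes of very low signal. Among genes above the olfactory receptor mark on all arrays, 19 of 33 receptors were called, against 5212 of 13674 genes. The median difference of the family was 0.04, against 0.13 for all genes, with a range from -2.43 to 1.32. After centring, 9 were called higher and 16 lower, while over all rows the split moved from 5109 higher and 2115 lower to 3210 and 3213.

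**Figure D1:**
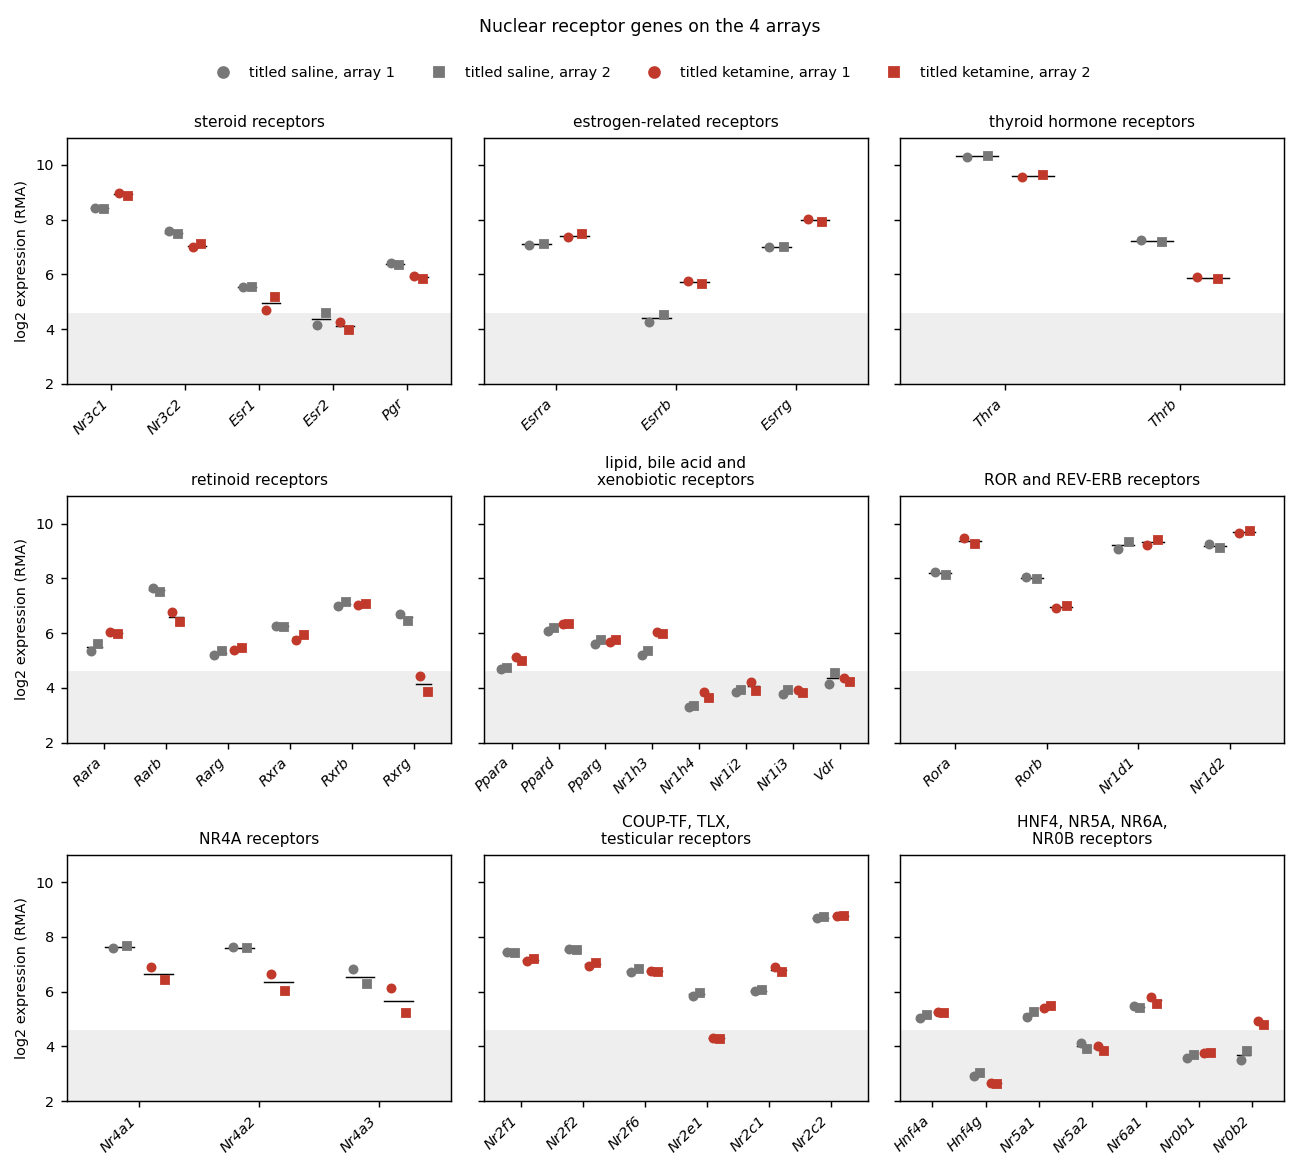
Log2 expression (y axis) of 44 nuclear receptor genes (x axis, italic) in 9 panels by role, with a point for each of the 4 arrays, grey for titled saline and red for titled ketamine, circles for array 1 and squares for array 2. Black bars are group means and the grey band lies below 4.56, the highest 95th percentile of the olfactory receptor rows. Rxrg, Nr2e1, Thrb and Rorb are lower, and Rora, Esrrb and Esrrg higher, on both arrays titled ketamine.

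The NR4A receptors are orphan receptors that neurons switch on within minutes of activity, and their promoters are shown because these genes lay lower together. The windows run from 250 bases before to 50 bases after the annotated start, from RefSeq (GRCm38.p6). In capitals are all copies of TGACG on either strand, the core of the cyclic AMP response element to which CREB binds. Nr4a1 is at chr15:101266596-101266895 on the plus strand, Nr4a2 at chr2:57123954-57124253 on the minus strand and Nr4a3 at chr4:48045055-48045354 on the plus strand.
Nr4a1: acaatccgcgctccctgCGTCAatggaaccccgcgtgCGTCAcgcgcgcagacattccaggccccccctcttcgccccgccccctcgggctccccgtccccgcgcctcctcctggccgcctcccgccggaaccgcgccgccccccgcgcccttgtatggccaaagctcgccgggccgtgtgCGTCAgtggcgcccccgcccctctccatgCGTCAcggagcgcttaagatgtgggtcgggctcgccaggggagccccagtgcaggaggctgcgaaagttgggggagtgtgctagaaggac
Nr4a2: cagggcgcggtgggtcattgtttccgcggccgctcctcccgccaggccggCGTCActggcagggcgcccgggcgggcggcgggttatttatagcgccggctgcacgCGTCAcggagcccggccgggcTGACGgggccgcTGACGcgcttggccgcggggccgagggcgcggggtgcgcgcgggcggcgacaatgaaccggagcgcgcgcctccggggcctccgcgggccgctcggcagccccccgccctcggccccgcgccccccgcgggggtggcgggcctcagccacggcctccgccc
Nr4a3: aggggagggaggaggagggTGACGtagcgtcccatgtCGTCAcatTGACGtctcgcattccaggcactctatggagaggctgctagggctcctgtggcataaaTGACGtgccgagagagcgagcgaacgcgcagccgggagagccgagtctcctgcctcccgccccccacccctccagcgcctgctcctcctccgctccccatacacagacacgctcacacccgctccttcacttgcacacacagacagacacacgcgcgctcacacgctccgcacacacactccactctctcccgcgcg
Each of the windows held 4 copies of the core. At least 1 copy was present in 20.8% of 32851 promoters of this length, and 4 or more in 0.231%. No other receptor window among the 61 that matched 40 of the measured receptors held 4. The full palindrome TGACGTCA, which contains the core, was in none of these 3 windows and in 1.79% of all promoters. The matches are letters in a window and do not show that a factor bound there.

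Nr4a1 (NUR77) read 7.60 and 7.67 on the arrays titled saline and 6.90 and 6.41 on those titled ketamine. Nr4a2 (NURR1), which also specifies midbrain dopamine neurons, read 7.63 and 7.59 against 6.65 and 6.02. Nr4a3 (NOR1) read 6.81 and 6.29 against 6.12 and 5.21. All 3 genes had their lower values on the arrays titled ketamine without overlap of the groups, and within that group array 2 read below array 1 for each of them. The log2 differences were -0.98 (SE 0.167, adjusted p = 0.00473 in limma) for Nr4a1 and -1.27 (SE 0.196, adjusted p = 0.00326) for Nr4a2. Both calls were lost without titled saline array 1 (adjusted p = 0.0508 and 0.0514) and without titled saline array 2 (0.0612 and 0.0512). The difference of Nr4a3 was -0.88 (SE 0.296, adjusted p = 0.057) and was not called; it passed after centring (adjusted p = 0.0224), and it was -0.43 without titled ketamine array 2 and -1.34 without titled ketamine array 1. Of the 13 markers of hypothalamus and midbrain, 8 were called lower on the same arrays. Among them were the dopamine transporter gene Slc6a3 at -1.90 and the dopamine synthesis gene Th at -0.77. The dopamine neuron factors Pitx3, Foxa1, Foxa2 and Lmx1b, at 0.14, 0.08, 0.15 and 0.23, were not called. Th and these factors were named after their values were seen, and the part of dopamine neurons in the values of Nr4a2 was not tested.

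ROR and REV-ERB receptors bind the same kind of element, RORs as activators and REV-ERBs as repressors, and together form a loop of the circadian clock. Rora read 8.25 and 8.13 on the arrays titled saline and 9.48 and 9.26 on those titled ketamine. Rorb read 8.03 and 7.98 against 6.91 and 6.998. These close relatives went opposite ways without overlap of the groups, Rora by 1.18 (SE 0.123, adjusted p = 0.000614), a ratio of 2.27, and Rorb by -1.05 (SE 0.107, adjusted p = 0.000558), a ratio of 0.482, both in limma. The cerebellar and forebrain markers also went opposite ways on these arrays, and their part in either value was not tested.

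Nr1d2 (REV-ERBβ) read 9.27 and 9.09 against 9.66 and 9.71, higher by 0.51 (SE 0.114, adjusted p = 0.0142 in limma); this call was lost without titled saline array 2 (adjusted p = 0.0685). Nr1d1 (REV-ERBα) read 9.08 and 9.32 against 9.23 and 9.39. Its groups overlapped, and its difference of 0.11 (adjusted p = 0.556) turned to -0.03 after centring. Nr1d1 and Thra lie over each other in the gene table, and whether their rows share signal was not examined.

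Thyroid hormone receptors repress or activate genes according to whether thyroid hormone is bound, and both were lower on the arrays titled ketamine. Thrb (TRβ) read 7.26 and 7.18 on the arrays titled saline and 5.89 and 5.82 on those titled ketamine. Thra (TRα), the main form in brain, read 10.31 and 10.31 against 9.56 and 9.62. Neither gene overlapped between the groups, and for both the arrays of a group lay closer to each other than the groups did. Thrb had a log2 difference of -1.37 (SE 0.107, adjusted p = 0.000185) and Thra of -0.72 (SE 0.104, adjusted p = 0.00246 in limma), ratios of 0.388 and 0.605.

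Of 10 measured genes that carry, convert or bind thyroid hormone, 3 were higher and 4 lower (30.0% and 40.0%, against 23.4% and 9.71% of all rows), and 3 were not called. Crym, which encodes a cytosolic thyroid hormone-binding protein, read 7.82 and 7.97 against 4.99 and 5.09, a log2 difference of -2.86 (SE 0.113). The amino acid and iodothyronine carrier gene Slc7a8 was lower by a difference of -0.82, and the transporter gene Slc16a10 was higher by 0.63. Ttr, the thyroxine carrier of the choroid plexus, was higher by 0.60 and read 11.47 and 11.49 against 11.87 and 12.28, beside the choroid plexus markers, one of which it is.

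Retinoid receptors bind DNA as dimers of a retinoic acid receptor (RAR) and an RXR, often at direct repeats spaced by 5 bases. The promoters of Rarb, a known target of retinoic acid, and of Rxrg are shown because these retinoid receptors had the largest differences. Capitals mark in Rarb (chr14:16575427-16575726, minus strand) a direct repeat of the core AGGTCA or of its variants (AGTTCA, the variant GGGTCA and the variant GGTTCA) with a spacer of 5 bases on either strand. In Rxrg (chr1:167618015-167618314, plus strand, the start of 2 in RefSeq that has a match) they mark AAAGGTCA, the element that NR4A monomers bind.
Rarb: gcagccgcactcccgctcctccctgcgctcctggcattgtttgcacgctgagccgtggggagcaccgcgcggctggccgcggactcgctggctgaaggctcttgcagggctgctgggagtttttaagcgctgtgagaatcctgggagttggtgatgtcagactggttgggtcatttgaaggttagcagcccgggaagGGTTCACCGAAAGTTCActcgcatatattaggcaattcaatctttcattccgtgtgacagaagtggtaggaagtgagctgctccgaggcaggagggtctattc
Rxrg: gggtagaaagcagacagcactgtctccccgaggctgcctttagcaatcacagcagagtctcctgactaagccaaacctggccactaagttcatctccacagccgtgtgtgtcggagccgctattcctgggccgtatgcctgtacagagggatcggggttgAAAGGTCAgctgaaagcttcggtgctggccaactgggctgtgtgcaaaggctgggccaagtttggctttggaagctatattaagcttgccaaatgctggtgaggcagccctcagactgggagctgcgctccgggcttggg
The repeat in Rarb, at bases 198 to 214 of the window, was the match of 1 receptor gene among the 40 searched, and 0.0974% of all promoters held such a repeat. AAAGGTCA was in 1.51% of all promoters and among the receptors in Rxra and Rxrg.

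Rxrg (RXRγ), which is abundant in the striatum, read 6.68 and 6.45 on the arrays titled saline and 4.44 and 3.83 on those titled ketamine, which is below the 95th percentile of the olfactory receptor rows on both of the latter. Rarb (RARβ), also a striatal gene, read 7.64 and 7.50 against 6.77 and 6.42. Rxra (RXRα) read 6.25 and 6.24 against 5.76 and 5.93. All of these were lower without overlap. Rxrg had the largest difference of the 44 receptors, -2.43 (SE 0.201, adjusted p = 0.000229), whose size is not resolved at so low a signal, Rarb one of -0.98 (SE 0.144, adjusted p = 0.00271) and Rxra one of -0.40 (SE 0.113, adjusted p = 0.0318, all in limma). The call on Rxra was lost without titled saline array 1 or 2 (adjusted p = 0.102 and 0.0984).

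Rara (RARα) was the retinoid receptor that went the other way. It read 5.33 and 5.62 against 6.04 and 5.96, a log2 difference of 0.53 (SE 0.130, adjusted p = 0.0204 in limma). After centring the difference was 0.39 and the call lay at the threshold (adjusted p = 0.04999 in limma). The call was lost without titled saline array 1, where the difference was 0.38. Rxrb (RXRβ), at 6.99 and 7.13 against 7.04 and 7.05, overlapped between the groups, and Rarg (RARγ), at 5.19 and 5.36 against 5.39 and 5.45, was not called (difference 0.15, adjusted p = 0.336).

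Of 15 genes of retinoid supply and breakdown, 4 were higher and 2 lower (26.7% and 13.3%, against 23.4% and 9.71% of all rows), 9 were not called, and the median difference was 0.16, against 0.13 for all rows. Aldh1a1, which makes retinoic acid from retinal, read 8.49 and 8.15 against 10.22 and 10.13, a difference of 1.85 (SE 0.140). The retinol dehydrogenase gene Rdh10, whose enzyme makes the retinal used for retinoic acid, was higher by 0.77, and Rdh11, a retinal reductase gene, by 0.78. Rbp4, the carrier of retinol in blood, was lower by a difference of -1.44 (6.92 and 6.98 against 5.40 and 5.62).

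**Figure D2:**
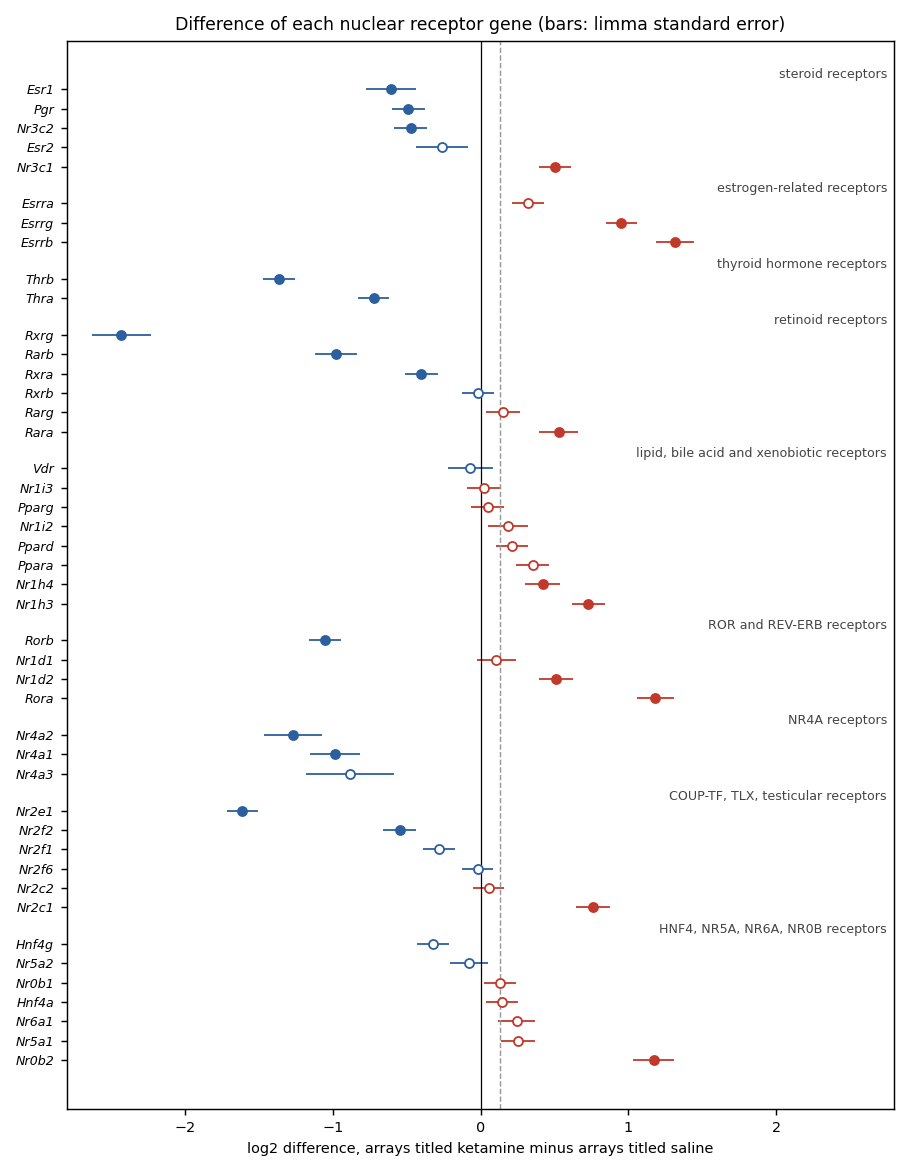
Log2 difference of each of 44 nuclear receptor genes (y axis, grouped by role), arrays titled ketamine minus arrays titled saline (x axis), with the limma standard error as a bar and filled points where the adjusted p was under 0.05. The dashed line at 0.13 is the median of all tested rows. Rxrg lies farthest to the left, at -2.43, and Esrrb farthest to the right, at 1.32.

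Steroid receptors are cytosolic or nuclear proteins that enter transcription once a steroid binds, and in the brain the glucocorticoid and mineralocorticoid receptors share the stress hormone corticosterone. Nr3c1, the glucocorticoid receptor gene, read 8.43 and 8.41 on the arrays titled saline and 8.98 and 8.87 on those titled ketamine. Nr3c2, the mineralocorticoid receptor gene, read 7.57 and 7.47 against 6.99 and 7.11. The receptors of the same hormone thus lay on opposite sides, Nr3c1 at 0.50 (SE 0.107, adjusted p = 0.0118) and Nr3c2 at -0.47 (SE 0.111, adjusted p = 0.0173 in limma). Both calls were lost without titled saline array 1, where the differences were 0.51 and -0.42. They were also lost without titled saline array 2, where the differences were 0.49 and -0.52.

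Pgr, the progesterone receptor gene, read 6.43 and 6.34 against 5.95 and 5.84, a difference of -0.49 (SE 0.110, adjusted p = 0.0144). Esr1 (estrogen receptor α) read 5.55 on each of the arrays titled saline and 4.69 and 5.19 on those titled ketamine. Its difference of -0.61 (SE 0.168, adjusted p = 0.0306 in limma) was -0.36 without titled ketamine array 1. Leaving out titled saline array 1 or 2 ended the calls on Pgr (adjusted p = 0.0683 and 0.0524) and Esr1 (0.144 and 0.145). Esr2 (estrogen receptor β), at 4.14 and 4.58 against 4.25 and 3.96, overlapped and lay near the olfactory receptor level.

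The 2 values of Esr1 on the arrays titled saline were identical, and so were those of Esrrg. Identical values on both arrays titled saline occurred in 916 of all rows (4.20%), and on both arrays titled ketamine in 95 (0.436%). Such a row has no measured spread in that group, and its cause was not tested. With the 1003 rows that were identical within a group left out, 23 of the 42 receptors that remained were called, 21 of them among the 23 named above, with Nr4a3 (adjusted p = 0.0192) and Ppara (0.049) added.

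Of 9 chaperone genes, 1 was higher and 1 lower (22.2% called, against 33.2% of all rows), and 7 were not called. Fkbp5, a glucocorticoid-induced brake on the glucocorticoid receptor, read 7.34 and 7.34 against 5.93 and 6.25, a difference of -1.25 (SE 0.133), while its counterpart Fkbp4, which favors the receptor's entry into the nucleus, read 8.36 and 8.32 against 9.22 and 9.07, a difference of 0.80 (SE 0.112). Ptges3, the p23 cochaperone, and Hsp90b1, an HSP90 of the endoplasmic reticulum, had differences of 0.27 and 0.21 and were not called.

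Of 16 genes of steroid synthesis and breakdown, 6 were higher and 3 lower (37.5% and 18.8%, against 23.4% and 9.71% of all rows), and 7 were not called. Hsd11b1, whose enzyme regenerates active glucocorticoid inside cells, read 5.21 and 5.35 against 7.67 and 7.63, a difference of 2.37 (SE 0.111). Cyp46a1, the neuronal enzyme that turns cholesterol into a ligand of the liver X receptors, read 8.98 and 8.96 against 7.20 and 7.13, a difference of -1.80 (SE 0.105). Cyp27a1, which makes another such oxysterol, was higher by 1.06, and Ch25h, a further enzyme of this kind, was lower by a difference of -0.76 but read below the olfactory receptor mark on all arrays.

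Estrogen-related receptors bind no estrogen and drive genes of oxidative metabolism with the coactivators PGC-1α and PGC-1β. Esrrb (ERRβ) read 4.26 and 4.53 on the arrays titled saline and 5.76 and 5.66 on those titled ketamine. The former lie just above the olfactory receptor marks of these arrays, 4.20 and 4.43, so the size of its difference is poorly resolved. Esrrg (ERRγ), the main brain form, read 7.02 on each array titled saline and 8.03 and 7.92 on those titled ketamine. Esrra (ERRα) read 7.07 and 7.13 against 7.36 and 7.48. All 3 lay higher without overlap of the groups, and 69.9% of all rows had no overlap in 1 direction or the other. The calls were on Esrrb (difference 1.32, SE 0.127, adjusted p = 0.000437) and Esrrg (0.95, SE 0.107, adjusted p = 0.000864 in limma). Esrra (0.32, SE 0.108, adjusted p = 0.0595 in limma) was not called, and after centring it differed by 0.18 (adjusted p = 0.261). Of their coactivator genes, Ppargc1b (PGC-1β) read 6.19 and 6.15 against 6.98 and 6.64, a difference of 0.64 (SE 0.138), and Ppargc1a (PGC-1α) read 7.58 and 7.29 against 7.93 and 7.75, a difference of 0.40 (adjusted p = 0.0609) that was not called.

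Receptors of lipids, bile acids, vitamin D and xenobiotics pair with RXR and act mostly in liver, gut, fat and macrophages. Of 8 measured, 2 (25%, against 33.2% of all rows) were called, both higher. Nr1h3 (LXRα) read 5.19 and 5.33 against 6.03 and 5.96, a difference of 0.73 (SE 0.111, adjusted p = 0.00304 in limma). Of 10 microglial markers 9 were lower on the same arrays, and their part in this value was not tested. Nr1h4 (FXR), at 3.31 and 3.34 against 3.86 and 3.64, was called at 0.42 (adjusted p = 0.033) but lay below the olfactory receptor mark on all arrays and lost its call after centring (adjusted p = 0.116) and without titled saline array 1 or 2 (0.117 and 0.105). The other 6, which were Ppara, Ppard, Pparg, Nr1i2 (PXR), Nr1i3 (CAR) and Vdr, differed by -0.07 to 0.35 and were not called. Nr1i2 and Nr1i3 read below that mark on all arrays. Ppara, a fatty acid sensor, came nearest, at 4.67 and 4.74 against 5.14 and 4.97 (adjusted p = 0.0524 in limma). After centring its difference fell from 0.35 to 0.22 (adjusted p = 0.208 in limma).

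COUP-TF receptors and TLX are orphan receptors of neural development, and testicular receptors are orphan receptors named for where they were found. Nr2e1 (TLX), which keeps forebrain neural stem cells dividing, read 5.85 and 5.95 on the arrays titled saline and 4.31 and 4.28 on those titled ketamine, below the olfactory receptor mark on both. Nr2f2 (COUP-TFII), a factor of some interneurons, read 7.57 and 7.50 against 6.92 and 7.06. Both were lower without overlap, Nr2e1 by a difference of -1.61 (SE 0.107, adjusted p = 9.49e-05) and Nr2f2 by one of -0.55 (SE 0.111, adjusted p = 0.00973 in limma; 0.0562 without titled saline array 1). The size of the former is not resolved at its low signal.

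Nr2f1 (COUP-TFI), which patterns the areas of the cortex, read 7.46 and 7.41 against 7.12 and 7.19 and was not called (difference -0.28, adjusted p = 0.0806), although it was after centring (adjusted p = 0.0228). Nr2c1 (TR2) read 6.02 and 6.05 against 6.89 and 6.70, higher by 0.76 (SE 0.116, adjusted p = 0.00302). Its partner Nr2c2 (TR4), with which it forms a heterodimer, differed by 0.05 (adjusted p = 0.715) and turned to -0.08 after centring. Nr2f6, at -0.02 (adjusted p = 0.899), overlapped between the groups.

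Receptors of the HNF4, NR5A, NR6A and NR0B kinds are known from liver, gut, gonads and adrenal, and 1 of 7 (14.3%, against 33.2% of all rows) was called. Nr0b2 (SHP), a receptor without a DNA-binding domain that represses other nuclear receptors, read 3.52 and 3.83 on the arrays titled saline and 4.92 and 4.77 on those titled ketamine. The values on the arrays titled saline lie below the olfactory receptor mark, so the size of the difference, 1.17 (SE 0.137, adjusted p = 0.00103 in limma), is not resolved. Hnf4g, Nr5a2 and Nr0b1 read below the mark on all arrays. Hnf4a, Hnf4g, Nr5a1, Nr5a2, Nr6a1 and Nr0b1 differed by -0.32 to 0.25 and were not called, although Hnf4g (difference -0.32, adjusted p = 0.0596) was after centring (adjusted p = 0.016).

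Coactivators and corepressors are the proteins through which the receptors act on chromatin, and 33.3% and 30.8% of them were called, against 33.2% of all rows. Of 18 coactivator genes 4 were higher, 2 lower and 12 were not called. Kat2b, the acetyltransferase PCAF, read 5.67 and 5.52 against 7.49 and 7.37, a difference of 1.83 (SE 0.114), and Ncoa7 and Ncoa4 were higher by 0.45 and 0.42. Of 13 corepressor genes, 2 were higher, 2 lower and 9 were not called. The called ones were the zinc finger genes Bcl11a and Bcl11b, forebrain neuron regulators that bind COUP-TFs, at -2.16 and -1.58, the repressor gene Bcl6 at 1.05, and Hr, a partner and target of thyroid hormone receptors, at 0.77. Hr read 6.19 and 6.21 against 6.95 and 6.99, so that it was higher on the arrays on which Thra and Thrb were lower. Over the cofactor and ligand lists together 34 of 81 genes were called, with 20 higher and 14 lower (24.7% and 17.3%, against 23.4% and 9.71% of all rows) and a median difference of 0.13, the same as that of all rows.

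**Figure D3:**
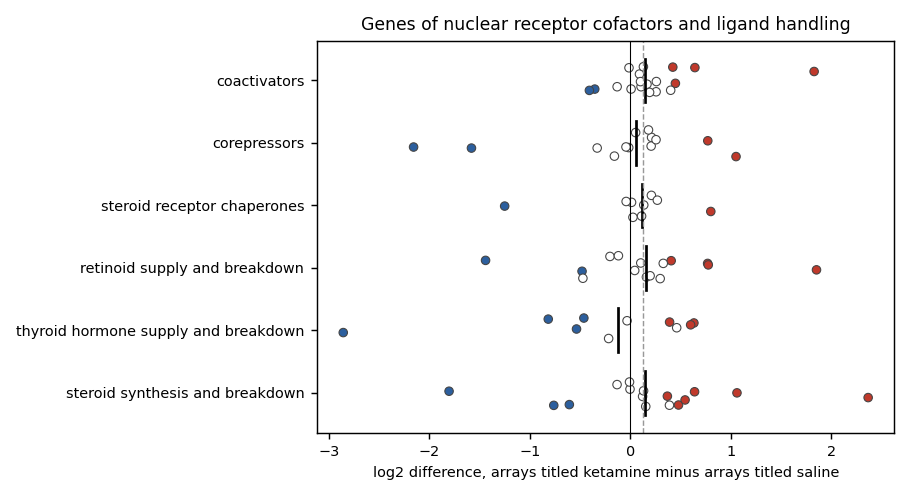
Log2 difference, arrays titled ketamine minus arrays titled saline (x axis), of the measured genes of 6 lists of cofactors and ligand handling (y axis). Each point is a gene, red where called higher, blue where called lower and white where not called; black bars are list medians, the points are spread vertically only for legibility, and the dashed line at 0.13 is the median of all rows. Crym at -2.86 and Hsd11b1 at 2.37 are the extremes.

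Within a group the receptors differed less than between groups. Between arrays 1 and 2 the median absolute difference of the 44 receptors was 0.107 in the group titled saline and 0.110 in the group titled ketamine, against 0.445 between the groups. The between-group difference exceeded the larger of the within-group ones for 32 receptors, all 23 called ones among them, and did not for 12. These medians and counts were not taken over all rows. The groups did not overlap for 69.9% of all rows, so wide separation is not particular to the receptors. The calls weigh these same differences, so the result for the called receptors is no separate support. The largest differences between the arrays titled ketamine, array 2 minus array 1, were those of Nr4a3 (-0.90), Nr4a2 (-0.63), Rxrg (-0.61), Esr1 (0.50) and Nr4a1 (-0.49).

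**Figure D4:**
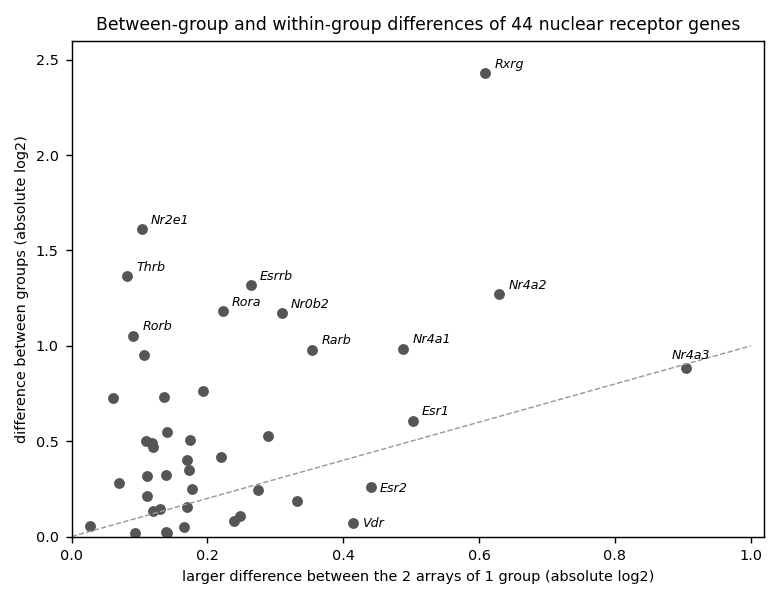
Absolute log2 difference between the group means (y axis) against the larger absolute difference between the 2 arrays of a group (x axis) for 44 nuclear receptor genes, 1 point per gene. The dashed line is equality. Nr4a3, at 0.88 between and 0.90 within the groups, lies just under it, and Rxrg, Nr2e1 and Thrb lie well above.

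An exact permutation test of a single gene, with 2 arrays in each group, can give no two-sided p below 0.333, and limma reaches smaller values by sharing the spread over all rows. Of the 23 calls, 12 (Esrrb, Esrrg, Nr0b2, Nr1h3, Nr2c1, Nr2e1, Rarb, Rora, Rorb, Rxrg, Thra and Thrb) held with titled saline array 1 and with titled saline array 2 left out in turn, and 11 did not. In each such fit 1 group holds a single array, which is assumed to vary like the other group, so that the spread comes from that other group alone. A call lost or held there says little about the size of the difference. Without titled ketamine array 1 or 2 limma called none of the 44 receptors and no row at all, with 24 and 25 receptors at an unadjusted p under 0.05. All 23 called receptors kept their direction with each array left out. This was fixed in advance, since the groups did not overlap for any of them.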

How the data were processed

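Total RNA from 4 samples labelled as prefrontal cortex was hybridized to 1 Affymetrix Mouse Gene 1.0 ST array each. The log2 values deposited by the authors are RMA summaries of core exons, computed with Affymetrix Expression Console. Neither the methods nor the labels state which version or which genome build was used. RMA gives the arrays a common probe distribution, so that a shift of most genes would be partly removed, and it compresses low values. The number of arrays limits the precision.

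Of 35556 rows, those with exactly 1 symbol in the platform annotation (21789) entered 1 linear model with group as its term (limma 3.58.1, lmFit and eBayes, under R 4.3.3), with p-values adjusted by Benjamini-Hochberg over all of them. The methods name no test for the arrays. Each measured receptor had 1 row, and all 44 matched RefSeq by gene number with equal symbols. The fit was also run on simulated rows with normal spread, few of them changed and all of those upward. In the deposited values 33.2% of rows were called, in both directions, so that run does not show how reliable these calls are. All members were named, and of each further list up to 4 genes with the largest difference (2 for markers). Ppargc1a and the markers Emx2, Neurod6, Th, Pitx3, Foxa1, Foxa2 and Lmx1b were named after their values were seen. Members and lists were chosen with earlier results of these data known. Ttr is in 2 lists.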

Additional observations from a re-analysis of the deposited data

How the results depend on the processing

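Counts of called receptors (23), of called rows (7224) and of called cofactor and ligand genes (34) stayed within 1.5 times under quantile normalization, centring on the array median, the filter at the median level (18 of the 23 receptors left in that fit were called), eBayes with trend and robust, and the omission of rows identical within a group, which was chosen after seeing the data. With all rows of the value table fitted, the cofactor and ligand genes dropped to 21. Of the calls on single receptors, that fit ended those on Nr3c2, Esr1, Rara, Rxra and Nr1h4. With each array left out, called receptors ranged from 0 to 14, called rows from 0 to 4574 and called cofactor and ligand genes from 0 to 24, while receptors past 1.3-fold ranged from 22 to 26. The 0 counts, without titled ketamine array 1 or 2, stand beside 5974 and 6461 rows and 27 and 30 cofactor and ligand genes at an unadjusted p under 0.05 in limma. Past 2-fold there were 8 receptors in place of 24. Quantile normalization called 3311 rows higher and 3074 lower.

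Whether the replicate numbers of the titles pair the arrays is not settled. Differences between array 2 and array 1 correlated at 0.034 over rows in the 2 groups, which shows no common shift but cannot exclude a pairing. With the replicate number as a block 25 receptors, 8250 rows and 38 cofactor and ligand genes were called; the block added Nr4a3 and Ppara and ended no call on a receptor.

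Directions turned for uncalled receptors alone. Quantile normalization gave -0.088 for Pparg, -0.13 for Nr1i3, -0.055 for Nr2c2, -0.0014 for Hnf4a and -0.014 for Nr0b1. Centring gave -0.088 for Pparg, -0.11 for Nr1i3, -0.028 for Nr1d1, -0.081 for Nr2c2 and -0.0033 for Nr0b1. With 1 array left out the differences ranged from -0.087 to 0.054 for Rxrb, -0.034 to 0.13 for Pparg, -0.045 to 0.094 for Nr1i3, -0.28 to 0.14 for Vdr, -0.016 to 0.23 for Nr1d1, -0.067 to 0.026 for Nr2f6 and -0.20 to 0.040 for Nr5a2. The alternative of averaging the rows of a gene gave no other value, since each measured receptor had 1 row. Low signal limits Rxrg, Nr2e1 and Nr0b2, which lay under the olfactory receptor mark in 1 of the groups. It also limits Esrrb, which lay just above that mark on the arrays titled saline.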

Other observations

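The elements searched in the promoters of the receptor genes were also counted over all 61 windows of the 40 measured receptors that RefSeq lists. TGACG was in windows of 14 receptors, and those with 2 or more copies were Esrrb, Nr2e1, Nr4a1, Nr4a2, Nr4a3 and Nr6a1, beside 5.01% of all promoters. The palindrome TGACGTCA was in windows of Nr2e1 and Nr6a1. Direct repeats of AGGTCA or the variants named for Rarb with spacers of 1, 2, 3 or 4 bases were in 0 receptor windows and in 0.222%, 0.268%, 0.0396% and 0.0822% of all promoters, so that a count of 0 in 61 windows is near these shares. These are matches of letters and were not compared with the expression values.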
